A study of Mus musculus with 12 samples.

Results

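The genes described here are the parts of the early secretory pathway that carry new proteins into the endoplasmic reticulum (ER) and then move them in coated vesicles between the ER and the Golgi apparatus. They were chosen by name: a gene was a member if an array probe set with a single gene symbol carried a symbol of the Sec, Sar1, Cop, Arcn1, Ssr, Srp, Srpr, Spcs, Tmed or Tram1 and Tram2 families. The rule found 58 of the 12335 genes that the array names by a single symbol, measured by 100 probe sets, and each gene was read from its brightest probe set. Of these, 56 genes were bright enough to be tested, among 9481 tested genes in all; Tram2, at 10.7 to 60.8 signal units over the arrays, and Sec1, at 2.9 to 39.8, were not. The name rule also caught 4 genes with other roles (Sec1, a fucosyltransferase gene, and the lipid-binding protein genes Sec14l1, Sec14l2 and Sec14l4), which are counted among the 56 where a count says members and are described on their own below.

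RNA came from whole pancreas of male mice aged 2 to 4 months, in 4 groups of 3 arrays: wild type C57BL6 mice given saline, wild type mice given caerulein, Mist1KO mice given saline and Mist1KO mice given caerulein. Injections were hourly for 4 hours, after which the mice were killed, and the saline groups were handled on the same schedule. The caerulein dose, the strain background of the Mist1KO mice, the deleted part of the gene and any pooling of animals are not stated by the sources used here. The study's design text calls the 3 samples of a group biological replicates. Caerulein is a peptide that acts like the gut hormone cholecystokinin, makes acinar cells secrete, and at repeated high doses is used to cause acute pancreatitis in rodents. Mist1, encoded by Bhlha15, is a helix-loop-helix regulator that secretory cells use to build their mature form.

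The acinar cell makes more secreted protein than most other cells of the body. A signal sequence on the growing chain is caught by the signal recognition particle, which docks at its receptor and hands the ribosome to the Sec61 channel, where Sec62, Sec63, the TRAP complex (Ssr genes) and Tram1 assist, and signal peptidase removes the signal sequence. COPII coats (Sar1, Sec23, Sec24, Sec13, Sec31) then bud vesicles from the ER, COPI coats (the Cop genes and Arcn1) return material from the Golgi, and p24 proteins (Tmed genes) ride in both as cargo receptors.

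Many genes of this pathway are textbook targets of the unfolded protein response, whose factors XBP1 and ATF6 recognise DNA with the core ACGTGG, so the promoters were searched for that core. RefSeq promoter windows (250 bases before to 50 after a transcription start, build GRCm38.p6) were found for 47 of the 58 genes, 51 windows in all. ACGTGG on either strand stood in 23 of these 51 windows (45.1%), against 8.31% of all 32851 windows in the table and 11.1% of the windows of all tested genes. The longer form TGACGTGG, which contains it, stood in 5 windows (9.8%, against 0.676% of all windows). By role, ACGTGG was in 9 of 15 COPII windows, 5 of 8 COPI windows, 3 of 7 p24 windows, 2 of 3 TRAP windows, and 1 each of 5 translocon, 4 signal recognition particle and 3 signal peptidase windows. The E-box CAGCTG, a form that Mist1-like factors can bind, stood in 9.8% of the windows against 16.3% of all windows, and the E-box CATATG in 3.92% against 3.91%. The ER stress element (CCAAT, any 9 bases, then CCACG) and TGATGNAAT were found in 0 of the 51 windows, against 0.119% and 0.965% of all windows. CCACG alone stood in 68.6% against 32.8%, and CCAAT alone in 39.2% against 37.4%. In the windows of all tested genes, CCACG stood in 45.2%, CCAAT in 36.8%, CAGCTG in 15.7%, CATATG in 1.89%, TGACGTGG in 0.948%, the ER stress element in 0.143% and TGATGNAAT in 0.469%. A match is a string of letters and not evidence of binding. The 130 bases before the start are printed below for 8 genes, 5′ to 3′ on the gene's own strand, to show where the core lies: capitals mark ACGTGG, its reverse complement, or the longer form. The first 6 hold a match, and Sec62 and Tmed6, which had the largest differences with caerulein and, after saline, with genotype, hold none in this stretch.
Copb1 (chr7:114254681-114254810, minus strand): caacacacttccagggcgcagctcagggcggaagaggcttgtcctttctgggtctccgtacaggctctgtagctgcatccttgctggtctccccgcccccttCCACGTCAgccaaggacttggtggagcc
Sec24d (chr3:123267366-123267495, plus strand): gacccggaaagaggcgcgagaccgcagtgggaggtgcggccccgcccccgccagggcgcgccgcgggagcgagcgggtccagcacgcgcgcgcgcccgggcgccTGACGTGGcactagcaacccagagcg
Tmed10 (chr12:85374718-85374847, minus strand): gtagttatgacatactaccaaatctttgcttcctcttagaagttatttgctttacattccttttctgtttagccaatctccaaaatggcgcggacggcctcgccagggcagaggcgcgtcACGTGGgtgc
Ssr1 (chr13:37994209-37994338, minus strand): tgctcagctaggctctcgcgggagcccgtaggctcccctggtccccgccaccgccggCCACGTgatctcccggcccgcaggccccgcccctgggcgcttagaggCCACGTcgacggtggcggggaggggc
Spcs1 (chr14:31001667-31001796, minus strand): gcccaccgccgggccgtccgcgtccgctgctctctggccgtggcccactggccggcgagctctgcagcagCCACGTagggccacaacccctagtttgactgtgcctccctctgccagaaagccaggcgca
Copz2 (chr11:96849746-96849875, plus strand): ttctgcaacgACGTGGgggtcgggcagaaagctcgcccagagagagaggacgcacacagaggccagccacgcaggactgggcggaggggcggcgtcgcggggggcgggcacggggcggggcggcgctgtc
Sec62 (chr3:30792746-30792875, plus strand): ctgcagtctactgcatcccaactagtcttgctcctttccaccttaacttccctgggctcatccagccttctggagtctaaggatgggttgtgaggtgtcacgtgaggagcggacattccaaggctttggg
Tmed6 (chr8:107065645-107065774, minus strand): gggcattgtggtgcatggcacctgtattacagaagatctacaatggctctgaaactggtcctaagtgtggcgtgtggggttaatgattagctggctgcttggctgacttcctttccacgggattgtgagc

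Signal was compared as log2(signal + 18.7) with limma, and a gene was said to rise or fall where its p, adjusted by the Benjamini-Hochberg method over 15716 probe sets, was under 0.05. As a check of the genotype labels, the brighter Bhlha15 probe set read 1601.0, 1619.0 and 1624.3 in wild type saline, 776.8, 729.5 and 838.5 in wild type caerulein, 89.9, 95.9 and 106.8 in Mist1KO saline and 42.6, 38.3 and 79.4 in Mist1KO caerulein, so all Mist1KO arrays lay below all wild type arrays. It was 14.1-fold lower in Mist1KO after saline and 11.4-fold lower after caerulein, and it also fell with caerulein in wild type by 2.04-fold (log2 -1.03 ± 0.18, adjusted p = 0.000934). Whether this probe set lies in the deleted part is not known. The arrays had been scaled to nearly equal trimmed means (151.08 to 151.37), yet their medians ran from 70.6 to 90.15 and the 50 brightest probe sets held 8.39% to 19.39% of the signal, least in Mist1KO caerulein. The median of all tested genes was therefore not at 0: it was -0.16 with caerulein in wild type, -0.14 with caerulein in Mist1KO, and -0.09 in Mist1KO against wild type after either injection. The medians of members and roles below are to be read against these values.

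Among the members, falls with caerulein outnumbered rises in both genotypes. In wild type, 18 of 56 members fell (32.1%, against 9.96% of all tested genes) and 1 rose (against 8.74%), with a median log2 difference of -0.32 (against -0.16). In Mist1KO, 28 fell (50%, against 14.0%) and 2 rose (against 10.2%), with a median of -0.40 (against -0.14). Without the genes caught by name alone, 18 of 53 fell and 0 rose in wild type, and 27 fell and 1, Sec24b, rose in Mist1KO. At an unadjusted p under 0.05 in limma, 3 of the 53 were higher in wild type, against 1149 of all 9481 tested genes. The falls included the translocon partners Sec62 and Tram1, all 4 TRAP genes in wild type, and the p24 genes Tmed4, Tmed10 and Tmed11. After each array was centred on its own median, which puts the median of all genes near 0, wild type counts were 9 lower and 3 higher (against 5.41% and 10.7% of all tested genes), with a member median of -0.19 against -0.03 over all genes; the 3 higher were Sec11a, Sec61a1 and Sec14l1. The same centring gave 15 lower and 2 higher in Mist1KO (against 9.13% and 12.3%), with a median of -0.28 against -0.02. In bulk tissue, fewer cells of a type and less RNA per cell cannot be told apart.

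**Figure D1:**
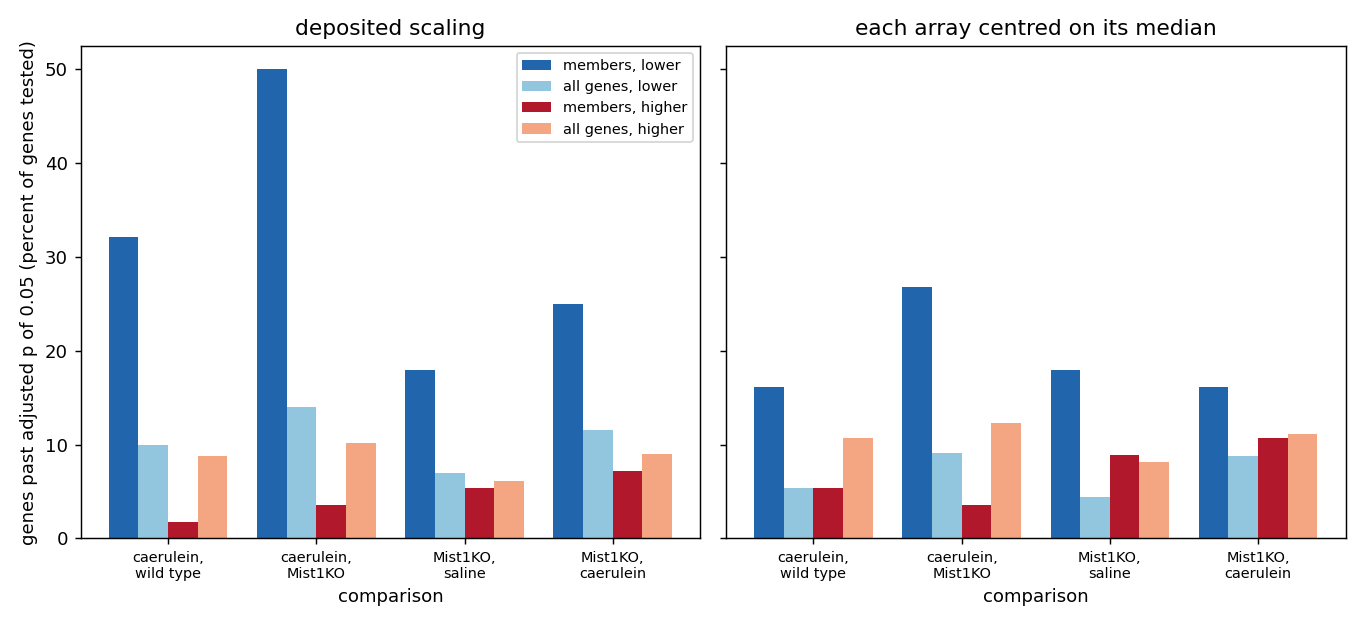
Percent of tested genes that passed the threshold, higher or lower, in each of the 4 comparisons, for the 56 members and for all 9481 tested genes, with the deposited scaling and after median centring. The bars for lower members with caerulein, 32.1% in wild type and 50% in Mist1KO, stand above the 9.96% and 14.0% of all genes.

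The member lists of the 2 genotypes overlapped in part. Copz1, Sec16a, Sec22b, Sec62, Spcs2, Srp14, Ssr1, Ssr2, Ssr4, Tmed10, Tmed11, Tmed4 and Tram1 fell in both, which is 13 genes, 72.2% of the wild type list and 46.4% of the Mist1KO list. Over all tested genes the overlap was 471 genes, 49.9% and 35.5% of the 2 lists. These 2 comparisons share no arrays, but all 4 groups lent 1 estimate of the spread. Copg2, Sec24c, Spcs3, Ssr3 and Tmed9 passed in wild type and not in Mist1KO, and 15 members passed as lower in Mist1KO and not in wild type. A difference between the genotypes was tested directly as an interaction, and 1 member passed, Srp68 (lower, against 1.87% of all tested genes; 0 members higher, against 1.48%). At an unadjusted p under 0.05 in limma, 11 members were lower and 1 higher in that test. Of all 9481 tested genes, 841 were lower and 760 higher at that unadjusted p. The larger count in Mist1KO is therefore not a test that the genotypes respond differently. The Mist1KO count was 15, 15, 16 and 18 when Mist1KO saline 3, Mist1KO caerulein 1, Mist1KO saline 1 or Mist1KO caerulein 2 was left out. The share of all tested genes that fell was then 10.3%, 9.55%, 10.3% and 9.58%.

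Between genotypes the members that passed lay in both directions. After saline, 10 of 56 members were lower (17.9%, against 6.95% of all tested genes) and 3 were higher (against 6.14%). After caerulein, 14 were lower (25.0%, against 11.6%) and 4 were higher (against 9.03%). Tmed6, Copz2, Sec11c, Tram1, Spcs1, Srp68 and Ssr4 were lower under both injections, 70% and 50% of the 2 lists, and Tmed5 and Tmed7 were higher under both. Over all tested genes, 339 were lower under both injections, 51.4% and 30.7% of the 2 lists. A further 267 were higher under both, 45.9% and 31.2% of those lists. The member median was -0.04 after saline (-0.09 over all tested genes), which turned to 0.05 after median centring (-0.002 over all tested genes). After caerulein the member median was -0.17 (-0.09 over all tested genes). With centring, 10 members were lower and 5 higher after saline (against 4.36% and 8.18%), and 9 lower and 6 higher after caerulein (against 8.73% and 11.1%). The saline comparison uses the same saline arrays as the caerulein comparisons, so the 2 kinds of difference are given side by side and not correlated.

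**Figure D2:**
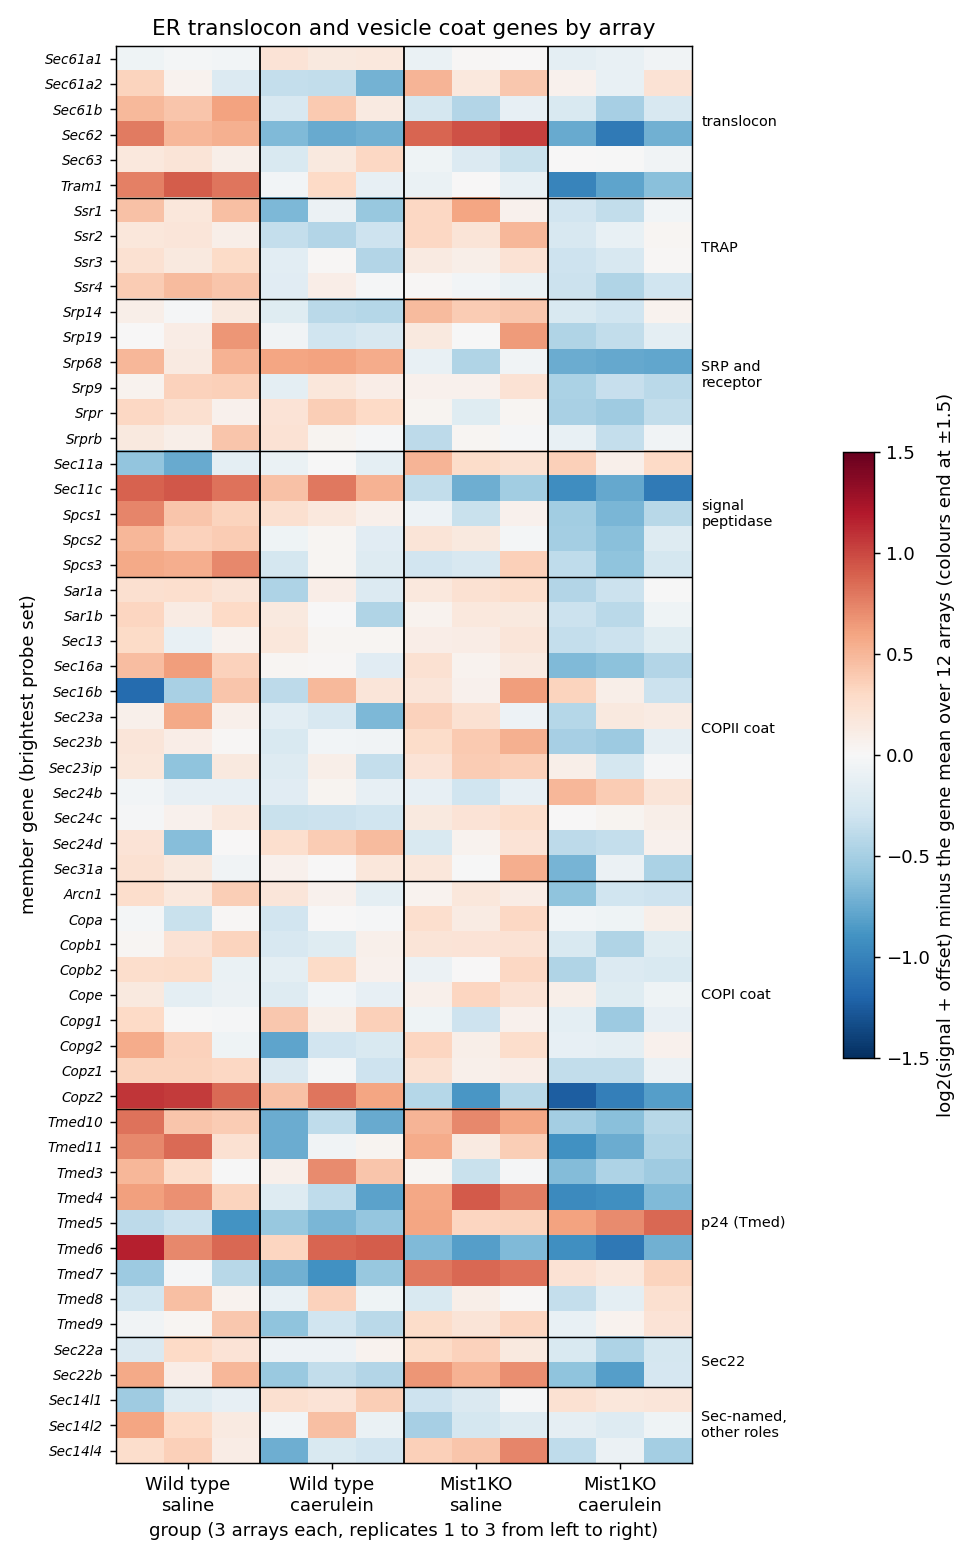
Deviation of each tested member (56 rows, grouped by role) from its own mean over the 12 arrays (columns, grouped by genotype and injection), in log2 units with colours ending at 1.5 either way. Median deviations per array ran from 0.19 to 0.26 in wild type saline and from -0.35 to -0.14 in Mist1KO caerulein. Over all tested genes they ran from 0.103 to 0.142 and from -0.155 to -0.045 on these arrays.

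**Figure D3:**
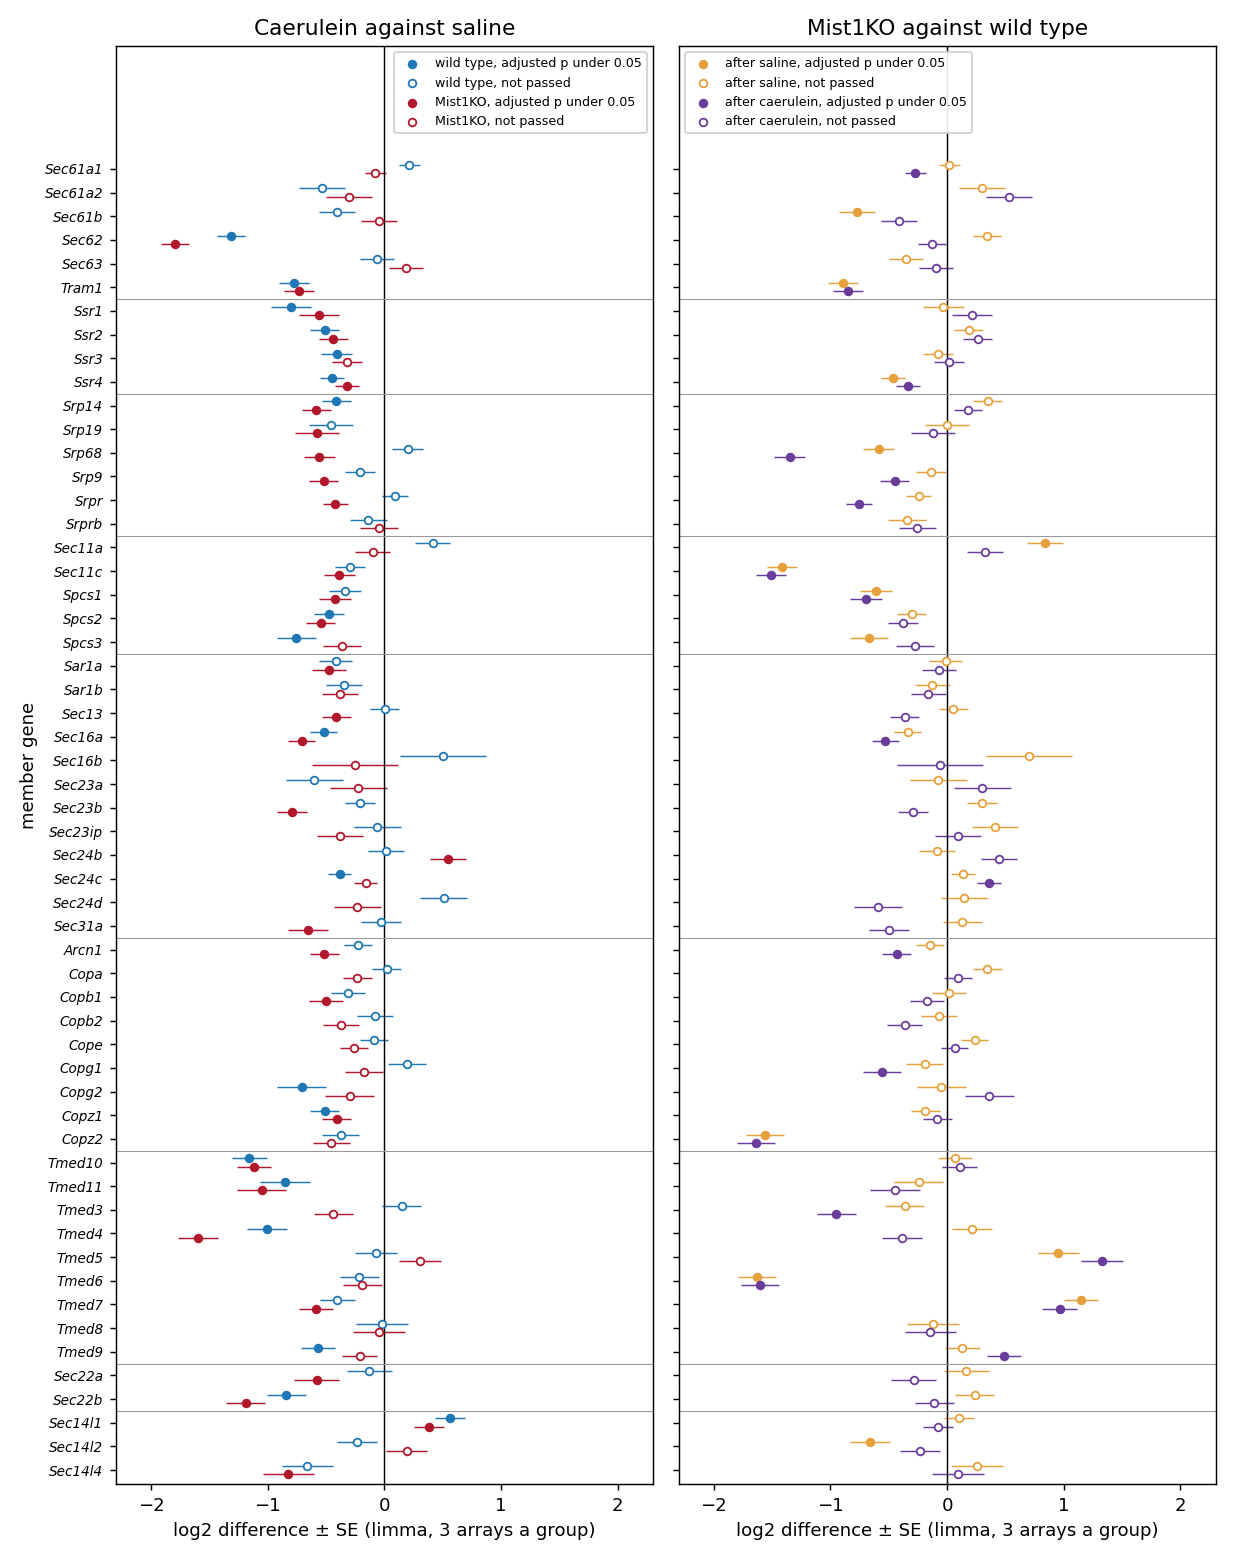
Log2 difference with its standard error for each tested member in the 4 comparisons, ordered by role. Sec62 is the member lowest with caerulein in both genotypes, at -1.32 and -1.79, and Tmed6 is lowest in Mist1KO after saline, at -1.63.

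Among the translocon genes, Sec62 fell most with caerulein, and the Sec61 subunits, by their brightest probe sets, did not pass with the deposited scaling. Sec62 helps open the Sec61 channel, above all for short or weakly targeted precursors. Its signal was 1872.6, 1546.1 and 1581.1 in wild type saline and 680.0, 634.9 and 652.6 in wild type caerulein. It was 2011.1, 2115.5 and 2220.0 in Mist1KO saline and 637.6, 510.8 and 652.0 in Mist1KO caerulein. Every caerulein array lay below every saline array. The fall was 2.49-fold in wild type (log2 -1.32 ± 0.12, SE; adjusted p = 5.02e-06) and 3.47-fold in Mist1KO (-1.79 ± 0.12; adjusted p = 2.61e-07). Its 3 further probe sets also fell in both genotypes, by 0.51 to 1.46 on the log2 scale in wild type and by 1.63 to 1.97 in Mist1KO.

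Tram1, a membrane protein beside the channel that contacts entering chains, fell with caerulein and was also lower without Mist1. Its 12 values were 2433.6, 2719.1 and 2520.3 in wild type saline, 1389.1, 1774.4 and 1320.7 in wild type caerulein, 1337.4, 1436.1 and 1331.8 in Mist1KO saline and 714.5, 821.5 and 920.9 in Mist1KO caerulein. The 4 groups did not overlap, except that the wild type caerulein and Mist1KO saline arrays ran through the same range. Caerulein lowered it 1.71-fold in wild type (log2 -0.78 ± 0.13, adjusted p = 0.000784) and 1.66-fold in Mist1KO (-0.73 ± 0.13, adjusted p = 0.000863). Mist1KO was lower 1.86-fold after saline (-0.89 ± 0.13, adjusted p = 0.000719) and 1.80-fold after caerulein (-0.85 ± 0.13, adjusted p = 0.000464). The interaction was 0.04 on the log2 scale (adjusted p = 0.941), so a difference in the caerulein response between genotypes was not detected. All 4 of these calls held under every alternative that was run.

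The channel itself gave smaller values. Sec61b, the beta subunit, read 3441.2, 3264.5 and 3719.5 in wild type saline and 2044.1, 1800.6 and 2255.3 in Mist1KO saline, without overlap, and was 1.71-fold lower there (log2 -0.77 ± 0.15, adjusted p = 0.0059); after caerulein the difference was -0.42 (adjusted p = 0.0722). The pore subunit gene Sec61a1 read 1632.7, 1673.9 and 1661.9 in wild type saline and 1974.8, 1892.6 and 1905.9 in wild type caerulein, a difference of 0.21 that did not pass (adjusted p = 0.121). After median centring Sec61a1 passed as higher with caerulein in wild type, and under quantile normalization Sec61b passed as lower there. The Sec61a1 call in Mist1KO after caerulein (-0.27, adjusted p = 0.0489) was lost in 19 of the 22 alternatives, and another Sec61a1 probe set fell with caerulein in wild type (-0.62, adjusted p = 0.0181). The paralogue Sec61a2 differed by -0.54 with caerulein in wild type and -0.30 in Mist1KO, and Sec63, the Sec62 partner that recruits the chaperone BiP, by -0.07 and 0.19; none of these passed. The median of the 6 tested translocon genes with caerulein was -0.47 in wild type and -0.19 in Mist1KO.

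**Figure D4:**
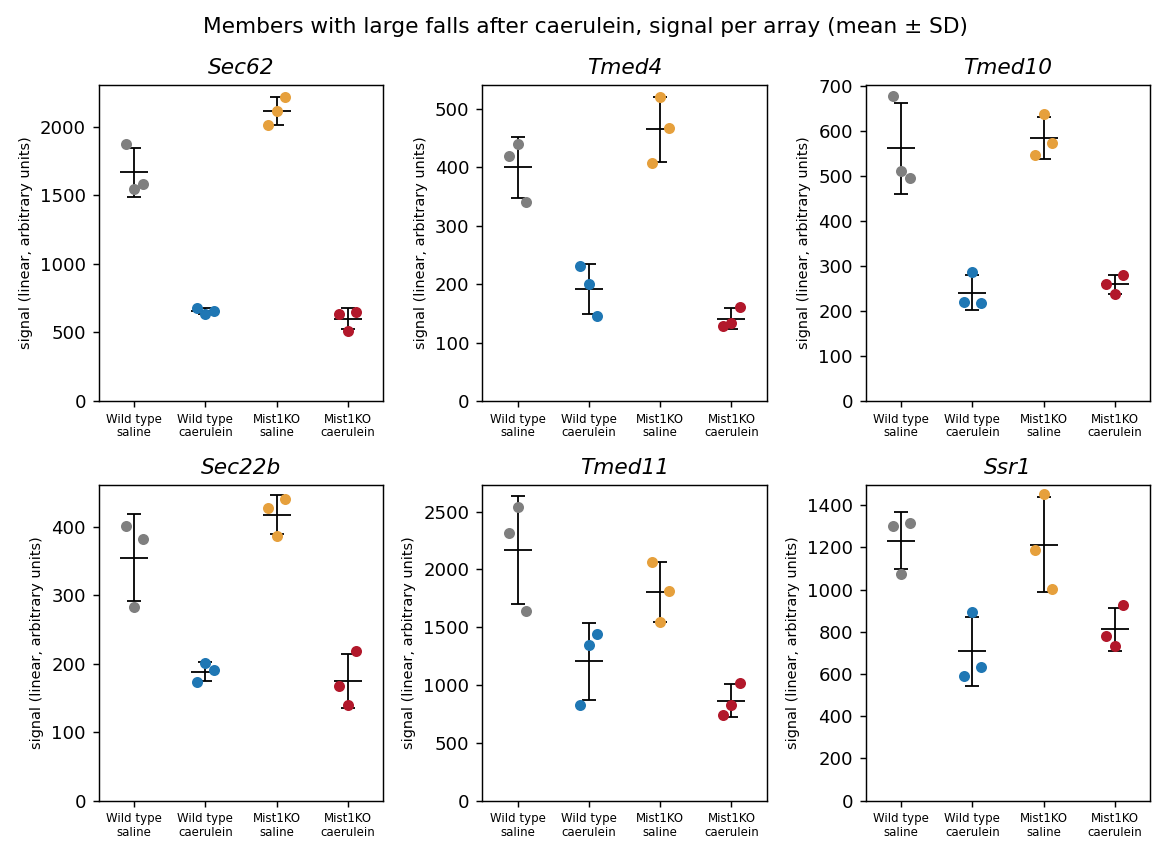
Signal on each of the 12 arrays for Sec62, Tmed4, Tmed10, Sec22b, Tmed11 and Ssr1, by genotype and injection; points are arrays, and bars give the group mean and SD. For Sec62 the wild type caerulein arrays sit between 634.9 and 680.0, below all saline arrays.

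The TRAP complex sits at the channel and aids the entry of proteins with weak signal sequences. All 4 of its genes were lower with caerulein in wild type (100%, against 9.96% of all tested genes). In Mist1KO 3 of the 4 fell (75.0%, against 14.0%). Ssr1 (TRAP alpha) read 1301.9, 1074.8 and 1315.4 in wild type saline and 591.7, 896.0 and 634.9 in wild type caerulein, without overlap. Its Mist1KO values were 1187.2, 1451.6 and 1000.7 after saline and 779.1, 731.6 and 925.0 after caerulein, also without overlap. Ssr1 fell 1.74-fold in wild type (log2 -0.80 ± 0.17, adjusted p = 0.00504) and 1.47-fold in Mist1KO (-0.56 ± 0.17, adjusted p = 0.0289). The Mist1KO call was lost when Mist1KO saline 1 or 2 or Mist1KO caerulein 1 or 2 was left out (adjusted p 0.0674 to 0.132). Ssr2 fell by 0.51 and 0.44 on the log2 scale in the 2 genotypes, and Ssr4 by 0.45 and 0.32. Ssr3 fell by 0.41 in wild type (adjusted p = 0.0384) and differed by -0.32 in Mist1KO (adjusted p = 0.0914). The Ssr3 call was lost in 13 of 22 alternatives, 8 of them with 1 array left out (adjusted p up to 0.16). In Mist1KO the Ssr2 call was lost in 5 and the Ssr4 call in 8. The TRAP median was -0.48 in wild type and -0.38 in Mist1KO. After median centring, Ssr1 alone passed in wild type (against 5.41% of all tested genes lower) and no TRAP gene passed in Mist1KO (against 9.13%). Ssr4 was also lower in Mist1KO after saline (-0.46, adjusted p = 0.011) and after caerulein (-0.33, adjusted p = 0.0353), but another Ssr4 probe set was higher after saline (1.65, adjusted p = 0.0112), and the mean of both gave 0.31. The Ssr4 call after caerulein was lost in 9 alternatives, and its fall with caerulein in wild type was lost with the mean of its probe sets (adjusted p = 0.636). An additional Ssr1 probe set was higher in Mist1KO after caerulein (0.79, adjusted p = 0.00139), where the brightest did not pass.

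For the signal recognition particle and its receptor, the difference between genotypes in the caerulein response passed for Srp68. In Mist1KO 5 of 6 members fell with caerulein (Srp14, Srp19, Srp68, Srp9 and Srpr), with a median of -0.54. In wild type Srp14 alone fell (-0.41, adjusted p = 0.0292), with a median of -0.17. These counts are 83.3% and 16.7%, against 14.0% and 9.96% of all tested genes. After median centring Srp14 and Srp68 alone fell in Mist1KO (against 9.13% of all tested genes), and 0 of the 6 in wild type (against 5.41%). Srp9, Srp14, Srp19 and Srpr did not pass the interaction in limma (adjusted p = 0.413, 0.688, 0.878 and 0.0961). The Srp14 call in wild type and the Srp19 call in Mist1KO were each lost in 7 of 22 alternatives, 4 of them with 1 array left out, with adjusted p up to 0.101 and 0.178 there. Srp68, which binds the RNA of the particle, read 1022.5, 791.7 and 1045.4 in wild type saline and 1099.8, 1102.5 and 1069.7 in wild type caerulein. In Mist1KO it read 668.3, 521.3 and 696.2 after saline and 421.5, 416.4 and 413.2 after caerulein. The 3 Mist1KO caerulein arrays were the lowest of the 12, and the wild type caerulein arrays were the highest. With caerulein the difference in wild type, 0.20 ± 0.13, did not pass (adjusted p = 0.316), and Srp68 fell in Mist1KO by 0.56 (adjusted p = 0.00705). The interaction of -0.76 ± 0.19 passed narrowly (adjusted p = 0.0428): it was lost in 14 of 21 alternatives, 10 of them with 1 array left out, with values from -0.89 to -0.64 when 1 array was left out and adjusted p up to 0.114. Mist1KO was lower than wild type 2.55-fold after caerulein (-1.35 ± 0.13, adjusted p = 1.48e-05), a call kept in every alternative, and by 0.59 after saline (adjusted p = 0.0122; 0.0502 without Mist1KO saline 2).

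The receptor subunit Srpr was lower in Mist1KO after caerulein by its brightest probe set, and did not pass the interaction. It read 2054.3, 1962.5 and 1741.9 in wild type saline, 1920.0, 2156.7 and 2052.9 in wild type caerulein, 1701.1, 1457.6 and 1692.6 in Mist1KO saline and 1181.6, 1144.2 and 1281.6 in Mist1KO caerulein. The injections overlapped in wild type and not in Mist1KO. Srpr fell by 0.42 with caerulein in Mist1KO (adjusted p = 0.012), differed by 0.09 in wild type, and was 1.69-fold lower in Mist1KO after caerulein (-0.76 ± 0.11, adjusted p = 0.000318). Both calls were lost with the mean of its probe sets (-0.18 with caerulein, adjusted p = 0.511, and -0.24 for genotype, adjusted p = 0.378). The fall with caerulein was also lost without Mist1KO saline 1 or 3 (adjusted p up to 0.0526) and after median centring. Srp9 was lower there too (-0.45, adjusted p = 0.0223), but the mean of its probe sets put that difference at 0.001, and a further Srp9 probe set fell with caerulein in wild type (-1.13, adjusted p = 0.000475), where the brightest did not pass. Srprb, the membrane-anchored receptor subunit, passed in no comparison.

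Signal peptidase held a pair of catalytic genes that moved in opposite directions without Mist1. Sec11c read 1673.8, 1735.9 and 1601.7 in wild type saline, 1228.1, 1570.2 and 1301.9 in wild type caerulein, 694.8, 534.4 and 623.6 in Mist1KO saline and 461.6, 520.0 and 420.7 in Mist1KO caerulein. All 6 Mist1KO arrays lay below all 6 wild type arrays. It was 2.67-fold lower after saline (log2 -1.42 ± 0.13, adjusted p = 1.87e-05) and 2.84-fold lower after caerulein (-1.51 ± 0.13, adjusted p = 5.01e-06). Its own fall with caerulein in Mist1KO (-0.39, adjusted p = 0.0447) was lost in 14 of 22 alternatives. Sec11a, the other catalytic subunit gene, read 395.8, 351.8 and 543.4 in wild type saline and 871.2, 736.8 and 714.4 in Mist1KO saline. Its caerulein values were 563.5, 603.1 and 545.5 in wild type and 778.2, 637.4 and 746.9 in Mist1KO. The saline groups did not overlap, and Sec11a was 1.79-fold higher in Mist1KO (0.84 ± 0.15, adjusted p = 0.00329); after caerulein the difference was 0.32 (adjusted p = 0.153).

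Of the accessory subunits of signal peptidase, Spcs1 and Spcs3 were lower in Mist1KO after saline, and Spcs2 did not pass between genotypes. Spcs1 was lower in Mist1KO by 0.61 after saline (adjusted p = 0.0113) and by 0.70 after caerulein (adjusted p = 0.0026). With the mean of its probe sets the Spcs1 difference after caerulein was -0.28 and did not pass (adjusted p = 0.135). Spcs3 read 836.6, 817.0 and 931.0 in wild type saline and 460.8, 567.3 and 484.3 in wild type caerulein, a fall of 1.69-fold (-0.76 ± 0.17, adjusted p = 0.00577), and it was lower in Mist1KO after saline (-0.67, adjusted p = 0.0188). After caerulein the Spcs3 genotype difference was -0.276 (adjusted p = 0.27). Spcs2 fell with caerulein in both genotypes, by 0.47 and 0.55. Its genotype differences were -0.305 after saline (adjusted p = 0.134) and -0.377 after caerulein (adjusted p = 0.0517). The Spcs3 genotype call was lost without wild type saline 3, Mist1KO saline 1 or Mist1KO saline 2 (adjusted p up to 0.0823), and the Spcs2 call in wild type without wild type saline 1 or wild type caerulein 3 (up to 0.0707). After saline, 3 of the 5 genes were lower and 1 higher in Mist1KO, against 6.95% and 6.14% of all tested genes. The median of the 5 was -0.61 (-0.09 over all tested genes), and -0.52 after median centring (-0.002 over all tested genes).

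COPII genes passed most often with caerulein in Mist1KO. Of 12 tested, Sec16a and Sec24c fell in wild type (16.7%, against 9.96% of all tested genes). In Mist1KO 5 fell (Sec16a, Sec23b, Sec31a, Sec13 and Sar1a, 41.7% against 14.0%) and 1 rose (Sec24b, 8.3% against 10.2%). Between genotypes 0 passed after saline, where limma gave 1 higher and 1 lower at an unadjusted p under 0.05. Of all 9481 tested genes, 1181 were higher and 1582 lower there at that unadjusted p. After caerulein Sec24c was higher and Sec16a lower in Mist1KO (8.3% each, against 9.03% and 11.6%). The COPII median with caerulein was -0.13 in wild type, close to that of all genes, and -0.38 in Mist1KO. Sec16a, the scaffold that marks ER exit sites, read 848.3, 952.5 and 785.3 in wild type saline and 624.7, 618.2 and 541.8 in wild type caerulein. It read 720.5, 636.0 and 673.9 in Mist1KO saline and 380.4, 392.3 and 448.2 in Mist1KO caerulein, the lowest group. The caerulein and saline arrays did not overlap within either genotype, with falls of 0.52 (adjusted p = 0.00688) and 0.71 (adjusted p = 0.000529), and Mist1KO was lower after caerulein (-0.53, adjusted p = 0.00596).

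Paralogues of the inner coat did not all do the same, though no difference between them was tested. Sec23b fell 1.74-fold with caerulein in Mist1KO (-0.80 ± 0.13, adjusted p = 0.000431), from 1000.2, 1092.9 and 1207.4 to 577.6, 561.4 and 748.6, and differed by -0.21 in wild type; Sec23a differed by -0.22 and -0.60 and passed in neither. Among the cargo-binding Sec24 genes, Sec24b rose with caerulein in Mist1KO (0.54, adjusted p = 0.0192), from 110.7, 96.3 and 110.9 to 181.3, 165.7 and 143.1. Sec24c fell in wild type (-0.38, adjusted p = 0.0168) and was higher in Mist1KO after caerulein (0.36, adjusted p = 0.0226). Sec24d passed in no comparison. The GTPase genes Sar1a and Sar1b differed by -0.42 and -0.35 in wild type and by -0.48 and -0.38 in Mist1KO, where Sar1a alone passed (adjusted p = 0.0269). Sec31a, part of the outer cage, fell in Mist1KO (-0.66, adjusted p = 0.0117), as did its cage partner Sec13 (-0.41, adjusted p = 0.0248). Sec16b and Sec23ip passed in no comparison. With 1 array left out, the Mist1KO caerulein calls were lost for Sar1a and Sec13 in 5 cases each (adjusted p up to 0.122 and 0.0912), for Sec24b in 3 (up to 0.093) and for Sec31a in 2 (up to 0.0641). The Sec24c call with caerulein was lost in 1 case (0.0574) and its genotype call in 4 (up to 0.0618).

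COPI was led by 1 gene, Copz2, and that gene followed genotype. Copz2 and Copz1 encode alternative zeta subunits of the coat. Copz2 read 806.4, 789.2 and 685.1 in wild type saline, 512.8, 667.2 and 569.7 in wild type caerulein, 273.4, 195.3 and 273.8 in Mist1KO saline and 148.1, 173.9 and 202.8 in Mist1KO caerulein. All Mist1KO arrays lay below all wild type arrays. It was 2.95-fold lower after saline (log2 -1.56 ± 0.16, adjusted p = 4.95e-05) and 3.11-fold lower after caerulein (-1.64 ± 0.16, adjusted p = 1.39e-05), and both calls were kept in every alternative. Copz1 read 484.3, 482.7 and 475.6 in wild type saline and 449.9, 401.4 and 410.3 in Mist1KO saline, differences of -0.19 after saline and -0.09 after caerulein that did not pass. Copz1 did fall with caerulein, in wild type by 0.51 (adjusted p = 0.0101) and in Mist1KO by 0.41 (adjusted p = 0.0262), and Copz2 passed in neither (-0.38 and -0.45). The Copz1 call in Mist1KO was lost in 6 of 22 alternatives, 4 of them with 1 array left out (adjusted p up to 0.102).

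In the rest of the COPI coat, the log2 differences that passed were smaller than those of Copz2. Arcn1, the delta subunit, fell with caerulein in Mist1KO (-0.51, adjusted p = 0.00716) and was lower than wild type there (-0.43, adjusted p = 0.0227). Copb1 fell by 0.50 in Mist1KO (adjusted p = 0.0233). Of the gamma subunit genes, Copg2 fell with caerulein in wild type (-0.71, adjusted p = 0.0291), and Copg1 was lower in Mist1KO after caerulein (-0.56, adjusted p = 0.0273). With 1 array left out, the Copg2 call was lost in 3 cases (adjusted p up to 0.11), the Copg1 call in 3 (up to 0.123), the Copb1 call in 5 (up to 0.103) and the Arcn1 genotype call in 3 (up to 0.11). Over all 22 alternatives they were lost in 7, 5, 7 and 7. Copa, Copb2 and Cope passed in no comparison. The median of the 9 COPI genes with caerulein was -0.23 in wild type and -0.37 in Mist1KO.

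The p24 genes held some of the largest differences by genotype, in both directions, and some of the largest falls with caerulein. Tmed10, the delta member that travels in COPI and COPII vesicles, read 677.6, 510.1 and 495.2 in wild type saline and 218.6, 285.6 and 216.7 in wild type caerulein. It read 544.9, 636.1 and 571.7 in Mist1KO saline and 259.8, 238.0 and 279.2 in Mist1KO caerulein. No caerulein array reached a saline array, and the fall was 2.23-fold in wild type (-1.16 ± 0.15, adjusted p = 0.000107) and 2.17-fold in Mist1KO (-1.12 ± 0.15, adjusted p = 0.000102). Tmed4 read 419.2, 439.9 and 340.4 in wild type saline, 230.2, 200.6 and 144.7 in wild type caerulein, 407.4, 520.0 and 467.4 in Mist1KO saline and 128.8, 132.6 and 161.6 in Mist1KO caerulein. Its groups too were apart, with falls of 2.01-fold (-1.01 ± 0.17, adjusted p = 0.00102) and 3.03-fold (-1.60 ± 0.17, adjusted p = 1.53e-05); a further probe set gave -0.32 and -0.41 and did not pass. Tmed11 read 2316.9, 2543.7 and 1640.6 in wild type saline, 825.9, 1345.2 and 1445.4 in wild type caerulein, 2062.5, 1543.2 and 1816.5 in Mist1KO saline and 740.5, 826.9 and 1020.8 in Mist1KO caerulein. The arrays of each genotype were apart, the fall was 2.08-fold in Mist1KO (-1.05 ± 0.21, adjusted p = 0.00255), and in wild type (-0.85 ± 0.21, adjusted p = 0.0127) it was -0.73 with an adjusted p of 0.0517 without wild type saline 2. Tmed9 fell in wild type (-0.57, adjusted p = 0.0152) and was higher in Mist1KO after caerulein (0.49, adjusted p = 0.0319), calls lost in 5 and 8 of 22 alternatives.

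Tmed6, a gamma-class p24 protein, had the largest difference by genotype of any member after saline. It read 6910.3, 5083.4 and 5610.2 in wild type saline, 3846.9, 5665.6 and 5780.0 in wild type caerulein, 1942.3, 1726.0 and 1937.4 in Mist1KO saline and 1620.5, 1455.0 and 1850.9 in Mist1KO caerulein. Every Mist1KO array lay below every wild type array. It was 3.10-fold lower after saline (log2 -1.63 ± 0.16, adjusted p = 4.51e-05) and 3.04-fold lower after caerulein (-1.61 ± 0.16, adjusted p = 2.12e-05), and caerulein itself gave -0.21 and -0.19, which did not pass. Tmed3, also of the gamma class, read 1121.1, 948.9 and 786.7 in wild type saline, 802.2, 620.8 and 779.0 in Mist1KO saline, 833.2, 1294.8 and 1058.2 in wild type caerulein and 494.9, 565.6 and 540.4 in Mist1KO caerulein. The caerulein groups did not overlap, and Tmed3 was 1.93-fold lower in Mist1KO there (-0.95 ± 0.17, adjusted p = 0.00142).

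Tmed7 and Tmed5, of the same class, were higher without Mist1. Tmed7 read 210.2, 309.8 and 230.9 in wild type saline, 184.1, 158.5 and 206.7 in wild type caerulein, 556.4, 586.9 and 568.6 in Mist1KO saline and 369.5, 352.4 and 399.7 in Mist1KO caerulein. It was 2.22-fold higher after saline (1.15 ± 0.15, adjusted p = 0.000331) and 1.95-fold higher after caerulein (0.97 ± 0.15, adjusted p = 0.000484), with no overlap, and it fell with caerulein in Mist1KO (-0.59, adjusted p = 0.01). A second Tmed7 probe set gave 1.02 after saline (adjusted p = 0.000764), and the dimmest gave 0.29 (adjusted p = 0.332). Tmed5 read 97.1, 102.8 and 62.8 in wild type saline, 83.7, 75.9 and 83.1 in wild type caerulein, 210.5, 171.6 and 172.1 in Mist1KO saline and 212.1, 228.2 and 255.9 in Mist1KO caerulein, again without overlap. It was 1.94-fold higher after saline (0.95 ± 0.18, adjusted p = 0.00409) and 2.51-fold higher after caerulein (1.33 ± 0.18, adjusted p = 0.000179); a further, not called probe set gave 0.42 and -0.04. The directions of Tmed3, Tmed5, Tmed6 and Tmed7 were the same under quantile normalization and median centring. Tmed8 passed in no comparison.

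**Figure D5:**
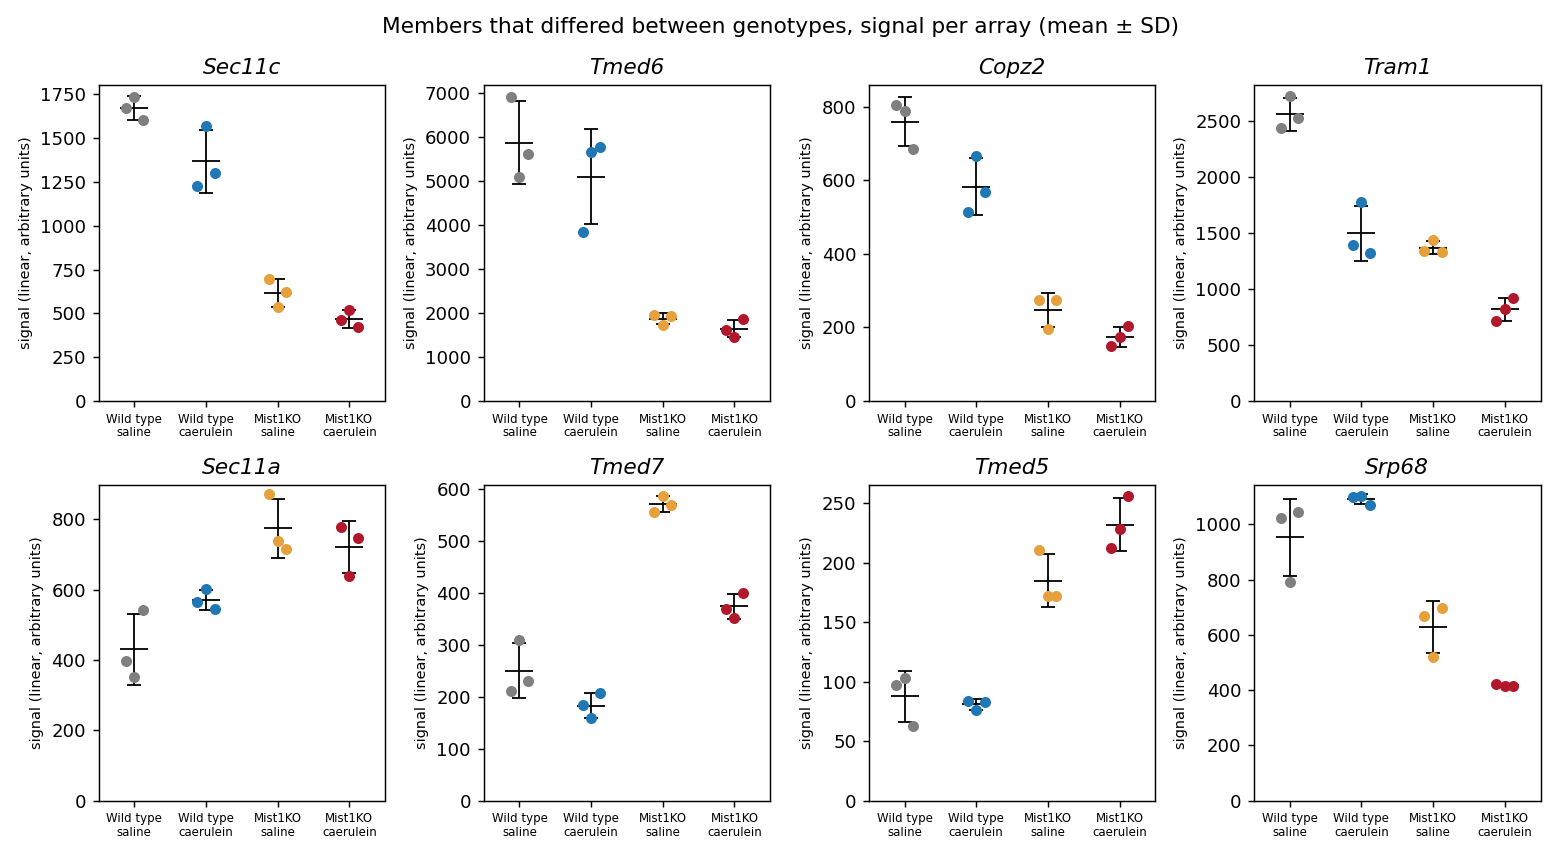
Signal on each of the 12 arrays for Sec11c, Tmed6, Copz2, Tram1, Sec11a, Tmed7, Tmed5 and Srp68, by genotype and injection; points are arrays, and bars give the group mean and SD. Tmed6 lies between 1455.0 and 1942.3 in Mist1KO and between 3846.9 and 6910.3 in wild type.

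Of the vesicle fusion genes, Sec22b, a SNARE of transport between ER and Golgi, fell with caerulein. It read 400.3, 282.8 and 381.5 in wild type saline, 173.1, 200.8 and 190.3 in wild type caerulein, 427.0, 385.8 and 439.7 in Mist1KO saline and 167.6, 140.1 and 217.7 in Mist1KO caerulein. The injections did not overlap in either genotype, and the fall was 1.79-fold (-0.84 ± 0.17, adjusted p = 0.00311) and 2.28-fold (-1.19 ± 0.17, adjusted p = 0.000154). A further Sec22b probe set fell by 0.86 in Mist1KO (adjusted p = 0.0124) but gave 0.13 in wild type (adjusted p = 0.723), and the mean of the Sec22b probe sets gave -0.36 in wild type (adjusted p = 0.187). Sec22a fell in Mist1KO (-0.58, adjusted p = 0.042), a call lost in 11 of 22 alternatives, 7 of them with 1 array left out (adjusted p up to 0.145).

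Among the genes caught by name alone, Sec14l1 was the only member to rise with caerulein in both genotypes (0.56, adjusted p = 0.00814, and 0.38, adjusted p = 0.0473), and the Mist1KO call was lost in 11 of 22 alternatives. Sec14l4 read 81.1, 87.4 and 71.2 in wild type saline, 31.4, 52.0 and 49.4 in wild type caerulein, 87.4, 91.9 and 119.6 in Mist1KO saline and 45.3, 59.6 and 39.8 in Mist1KO caerulein. It fell 1.77-fold in Mist1KO (-0.82 ± 0.22, adjusted p = 0.0151; not passed without Mist1KO saline 3 or without Mist1KO caerulein 1, with adjusted p up to 0.0738), and the -0.66 in wild type did not pass (adjusted p = 0.0532). Sec14l2 was lower in Mist1KO after saline (-0.66, adjusted p = 0.0252), a call that was lost when wild type saline 1 or 2 or Mist1KO saline 1 or 2 was left out.

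In all, 44 of the 56 tested members passed in at least 1 of the 5 tests, giving 81 calls, of which 39 were kept in every one of the 22 alternatives. These counts were not made over all tested genes, so they do not set the members apart from other genes. Copa, Copb2, Cope, Sar1b, Sec16b, Sec23a, Sec23ip, Sec24d, Sec61a2, Sec63, Srprb and Tmed8 passed in none. Many genes had more than 1 probe set: for members called lower or higher with caerulein in Mist1KO, 23 of 25 further tested probe sets had the same direction and 15 of them also passed; for Mist1KO against wild type after caerulein, 12 of 19 had the same direction and 3 passed.

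Neighbouring steps of the pathway were read from lists of other genes, set beside the shares of all tested genes with caerulein (9.96% lower and 8.74% higher in wild type, 14.0% and 10.2% in Mist1KO). For Mist1KO against wild type those shares were 6.95% lower and 6.14% higher after saline, and 11.6% and 9.03% after caerulein. The oligosaccharyltransferase adds sugar chains beside the channel. It had 4 of 10 genes lower in wild type (40.0%) and 8 of 10 in Mist1KO (80.0%). In both 0 were higher, also at an unadjusted p under 0.05 in limma. Of all 9481 tested genes, 1149 and 1291 were higher at that unadjusted p in wild type and Mist1KO. Magt1, an oxidoreductase subunit, fell by 0.62 (adjusted p = 0.00198) and 0.94 (adjusted p = 5.63e-05). Without Mist1, 4 of these 10 were higher (40.0%) and 1 lower (10.0%) after saline. They included Stt3b, a catalytic subunit (0.62, adjusted p = 0.00209), and Krtcap2 (-0.59, adjusted p = 0.00549). After caerulein 1 of the 10 was higher and 1 lower (10.0% each, near the shares of all genes). Of 17 genes for other routes into the ER membrane, 1 was lower in wild type with caerulein (5.9%, below the share of all genes). In Mist1KO 7 were lower (41.2%) and 1 higher (5.9%). Between genotypes 4 were higher (23.5%) and 2 lower (11.8%) after saline, and 1 higher (5.9%) and 4 lower (23.5%) after caerulein. Nomo1 was lower under both injections (-0.84 and -1.01). Of 47 other ER to Golgi genes, 8 fell (17.0%) and 4 rose (8.5%, near the share of all genes) with caerulein in wild type, and 19 fell (40.4%) and 2 rose (4.3%) in Mist1KO. Among them Lman1, the cargo receptor of the ER to Golgi intermediate compartment, fell 2.10-fold and 2.21-fold (adjusted p = 0.000179 and 7.21e-05). Its partner Mcfd2 fell in Mist1KO only, from 3582.9, 3567.3 and 3603.6 to 1759.7, 1845.7 and 2091.2, with an interaction of -1.03 (adjusted p = 0.00378). It was 1 of 5 genes of this list lower in that test (10.6%, against 1.87% of all tested genes). Between genotypes this list had 3 higher and 3 lower genes after saline (6.4% each, near the shares of all genes). After caerulein it had 3 higher (6.4%) and 10 lower (21.3%). Kdelr3, a receptor that returns ER proteins, was 3.28-fold lower in Mist1KO after saline (adjusted p = 0.000271) and rose 3.21-fold with caerulein there (adjusted p = 6.79e-05). These comparisons share the Mist1KO saline arrays.

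Acinar markers passed mostly in the comparisons that hold the Mist1KO caerulein arrays. The summed signal of 8 acinar markers on the array (of 10 listed) was 130328.1 to 170287.8 in wild type saline, 110498.9 to 154677.3 in wild type caerulein, 96463.6 to 113873.0 in Mist1KO saline and 55751.2 to 85361.6 in Mist1KO caerulein. Of the 8, 1 fell with caerulein in wild type (12.5%, against 9.96% of all tested genes) and 7 in Mist1KO (87.5%, against 14.0%), and in Mist1KO against wild type 6 were lower after caerulein (75.0%, against 11.6%). After saline 0 of the 8 passed (against 6.95% of all tested genes lower), and 6 were lower at an unadjusted p under 0.05 in limma. Of all 9481 tested genes, 1582 were lower at that unadjusted p. The median log2 difference of the 8 markers after saline was -0.50, against -0.09 over all tested genes. Added control transcripts had geometric means of 1201.0 to 1324.6, 831.5 to 1443.0, 755.3 to 1008.7 and 408.4 to 513.1 in the same 4 groups. Summed signals of 4 lymphocyte and plasma cell markers were 1262.3 to 2630.2, 361.1 to 694.9, 923.0 to 2107.5 and 1748.3 to 3867.7, with 3 of 4 lower in wild type with caerulein. In Mist1KO 1 of these 4 was higher with caerulein, and against wild type 1 was higher after saline and 2 after caerulein. Of 5 tested fibroblast and stellate cell markers 1 fell in wild type and 2 fell in Mist1KO with caerulein, with sums of 2223.3 to 4477.6, 1581.2 to 2563.1, 2986.8 to 4403.5 and 1841.9 to 2564.2 in the group order above. Endothelial sums were 409.7 to 574.5, 344.0 to 504.4, 266.1 to 278.6 and 257.8 to 367.5, with 2 of 3 lower in Mist1KO after saline. Islet sums were 13246.6 to 14053.5, 10818.2 to 15950.1, 12752.1 to 14159.2 and 9428.7 to 10680.6, so the Mist1KO caerulein arrays lay below all others; of 4 tested islet markers 1 fell with caerulein in Mist1KO and 2 were lower in Mist1KO after caerulein. Duct sums were 2138.5 to 2524.1, 1832.3 to 2264.8, 1383.4 to 1622.1 and 2113.4 to 2228.3, lowest in Mist1KO saline. Of 3 tested duct markers, Krt19 rose with caerulein in both genotypes (3.69-fold and 11.3-fold) and passed the interaction (log2 1.62, adjusted p = 0.0113), and Muc1 fell with caerulein in wild type and, after saline, was lower in Mist1KO. Adipocyte sums lay between 204.3 and 1193.8, and neutrophil and macrophage sums lay between 688.9 and 1385.4 over all arrays. No marker value was 0; Cftr, Ppy, Pdgfrb, Tie1, Itgam and S100a9 were too dim to be tested. The part of these cell markers and control transcripts in the members' differences was not tested.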

How the data were processed

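Microarray intensity values on a linear scale, 1 table of 12 arrays and 22516 probe sets, were used as deposited by the authors; the summarisation software, scaling target and detection calls were not in the labels or the file, and their effect on dim probe sets cannot be judged here. The authors' scaling is seen only from the equal trimmed means. Gene symbols came from the platform annotation: 20240 probe sets had 1 symbol, 682 several, 1530 none, and 64 were controls. Probe sets whose mean log2(intensity + 18.7), the offset being the 20th percentile, passed the 30th percentile (about 35.4 signal units) were tested with limma 3.58.1 in R 4.3.3. The fit had a mean per group, an intensity trend, 8 residual degrees of freedom and two-sided tests adjusted by the Benjamini-Hochberg method. Folds are on the log2(signal + 18.7) scale. With 3 arrays a group, precision is limited by their number.

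Members with a log2 difference of at least 0.8 in size that passed, or that passed the interaction, were given with all 12 values, and paralogues side by side. The members, roles, pathway lists and cell markers were chosen with earlier results of these data known. Control probe sets, and 16 probe sets with several symbols that held a member's, were left out. The test was checked on simulated data, drawn independently for each probe set, which cannot check the effect of array scaling. The alternatives were another offset, filter, scaling, trend, probe set summary, sample set, replicate block, and each array left out.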

Additional observations from a re-analysis of the deposited data

Results flagged for a closer look

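Srp68 met the rule for a difference between groups: its caerulein response differed between Mist1KO and wild type by -0.76 on the log2 scale (limma, adjusted p = 0.0428). The difference was lower in Mist1KO, where all 3 caerulein arrays read 413.2 to 421.5, while the wild type caerulein arrays read 1069.7 to 1102.5. A further Sec62 probe set, not the brightest, met the same rule with a difference of -1.11 (limma, adjusted p = 0.0205). Its signal was 674.8, 688.1 and 559.6 in wild type saline, 338.3, 453.7 and 562.5 in wild type caerulein, 940.8, 849.8 and 874.8 in Mist1KO saline, and 273.8, 317.5 and 239.3 in Mist1KO caerulein. The brightest Sec62 probe set gave an interaction of -0.48 that did not pass (adjusted p = 0.156).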

How the results depend on the processing

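Of the 81 calls of members, 39 were kept in all 22 alternatives. Under median centring 28 no longer passed, without the intensity trend 18, with the mean of all probe sets of a gene 14, with 4 times the offset 2, with the offset at 9.35 0, and with 1 array left out 7 to 21. Reversed calls were found for 2 results, both with the mean of all probe sets: Ssr4 in Mist1KO after saline became 0.306 and Srp9 in Mist1KO after caerulein became 0.001. For caerulein in wild type, median centring gave 3 members higher, 9 lower (against 10.7% and 5.41% of all tested genes) and a median of -0.194. Quantile normalization gave a median of -0.41, and leaving out 1 array 1 to 2 higher (against 6.91% to 8.87%). For caerulein in Mist1KO, 1 member was higher with no filter, quantile normalization, no intensity trend or the mean of all probe sets (against 7.59% to 10.4%). Median centring gave 15 lower (against 9.13%) and a median of -0.276. Leaving out 1 array gave 0 to 2 higher (against 7.58% to 10.6%) and 15 to 29 lower (against 9.55% to 14.7%). For Mist1KO against wild type after saline, median centring gave 5 higher (against 8.18%) and a median of 0.051, and the mean of all probe sets 5 higher (against 6.2%). After caerulein, median centring and the mean of all probe sets each gave 9 lower (against 8.73% and 11.2%). A fit of only the 2 groups compared gave 2 higher (against 8.18%). Leaving out 1 array gave 2 to 4 higher (against 6.25% to 9.53%) and medians of -0.264 to -0.107. The interaction count of 1 lower became 0 with no filter, quantile normalization, median centring or no intensity trend (against 1.05% to 1.75%). It was 0 to 1 with 1 array left out (against 0.939% to 1.92%). Median centring moved the share of higher among called members from 5.3% to 25.0% with caerulein in wild type and 6.7% to 11.8% in Mist1KO. It moved that share from 23.1% to 33.3% in Mist1KO against wild type after saline and 22.2% to 40.0% after caerulein. Among all called genes the same shares moved from 46.8% to 66.4%, 42.2% to 57.4%, 46.9% to 65.3% and 43.7% to 55.9%, in that order. A replicate block left 16 lower and 1 higher with caerulein in wild type (against 9.16% and 8.3% of all tested genes). In Mist1KO it left 25 and 2 (against 13% and 9.71%). For genotype it left 10 and 3 after saline (against 5.47% and 5.42%), and 13 and 4 after caerulein (against 10.4% and 8.32%). In the interaction it left 1 and 0 (against 1.39% and 1%). Less their group means, same-numbered arrays correlated at -0.104 to 0.045 and differently numbered arrays at -0.057 to 0.093. Such deviations are tied within a group, so these values cannot show whether same-numbered arrays belong together. The labels give them only a number. The cause of the changes under these alternatives was not tested. Dim members, such as Sec14l4 and Tmed5, lie nearer the offset, which understates their folds.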
